A study of Mus musculus with 4 samples.

Results

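Heat shock proteins and their partners were followed across 4 arrays by taking every probe set whose platform symbol was Hspa1b, Hspa8, Hsph1, Hsp90aa1, Hsp90ab1, Dnajb1, Hspb1, Hspb8, Hspd1 or Hspe1. Of these 10 genes 9 had probe sets, 24 of the 45101 on the array. The annotation used holds 18828 distinct symbol entries, counting those that list several symbols. Hsp90ab1, the constitutive cytosolic HSP90, had no probe set under its symbol in the annotation used and was not analysed here. The RNA came from mouse embryonic fibroblasts, which are cells grown out of embryos and kept in culture. Of the 4 arrays, 1 held unirradiated Wip1+/+ cells, 1 held Wip1+/+ cells given 5 Gy of gamma rays and taken at 4 h, and the remaining pair held unirradiated and irradiated cells labelled Wip1-/-. Wip1 is a phosphatase, the product of Ppm1d, that switches off p53 and damage kinases such as Atm. Unirradiated arrays are labelled 0 h, so radiation and 4 h of further culture cannot be told apart. The labels do not say how the Wip1 allele was made or how many embryos or cultures stand behind an array.

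Heat shock proteins are molecular chaperones that bind unfolded or partly folded proteins and keep them from clumping. HSP70 proteins work with J-domain partners such as Dnajb1 and with exchange factors such as Hsph1, HSP90 finishes the folding of many kinases and receptors, small heat shock proteins hold unfolded proteins in reserve, and the Hspd1 and Hspe1 chaperonin folds proteins imported into mitochondria. Under heat, oxidants or proteotoxic stress the transcription factor Hsf1 binds heat shock elements, which are alternating GAA and TTC units, and raises many of these genes together. Ionizing radiation acts mainly through DNA breaks and p53, and the comparisons below ask whether the chaperone transcripts moved with it or with the genotype label.

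Promoter sequences from RefSeq (build GRCm38.p6) were at hand for 7 of the 10 genes, as windows from 250 bases before to 50 bases after a transcription start. They were searched for the unit pairs GAANNTTC and TTCNNGAA. Each of these is its own reverse complement, so both strands were covered. Longer runs of 3 alternating units with the same spacing, on either strand, were also searched; each contains 2 overlapping unit pairs. At least 1 unit pair was present in 7 of the 10 windows of these genes, from 6 of the 7 genes. Dnajb1 had none in either of its windows, and Hspd1 had none in the window of 1 of its starts. Of all 32851 windows in the table, 15.1% held a unit pair and 0.603% a longer run. A match describes letters and does not show binding. The stretches printed here hold the matches of these genes, except those of Hsph1 after its start, which are not printed. Apart from that, they show how the genes compared below differ in the number and spacing of units. Capitals mark the unit pairs, and each stretch is written on the strand of its gene, the shared one on that of Hspe1.
Hspa1b, the 150 bases before its start (chr17:34959239-34959388, minus strand): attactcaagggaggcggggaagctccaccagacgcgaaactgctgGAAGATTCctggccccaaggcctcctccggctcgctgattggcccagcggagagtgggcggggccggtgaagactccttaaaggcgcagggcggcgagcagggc
Hspd1-Hspe1, between the divergent starts (chr1:55088028-55088107, plus strand): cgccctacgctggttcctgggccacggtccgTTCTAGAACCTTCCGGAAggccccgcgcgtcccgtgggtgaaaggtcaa
Hspb1, upstream of its start (chr5:135887789-135887848, plus strand): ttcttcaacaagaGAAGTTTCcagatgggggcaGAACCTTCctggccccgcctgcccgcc
Hsph1, directly upstream of 1 of its starts (chr5:149636337-149636396, minus strand): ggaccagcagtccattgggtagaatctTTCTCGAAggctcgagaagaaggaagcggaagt
Hspb8, around its start (chr5:116422843-116422872, minus strand): gaagccaggaGAAGTTTCtaggctcgcgag
Hspa1b carries a single unit pair in its window, 104 bases before its start, and Hspb1 has 2, at 117 and 97 bases. Hspd1 and Hspe1 lie head to head on chromosome 1 and share a run of 18 bases in which 3 unit pairs overlap. Both have 1 longer run of each kind there, and this stretch also lies inside the RefSeq span of Hspd1, which has a second start further on. Hsph1 has 3 unit pairs in each of its windows. Its printed stretch holds only TTCTCGAA, before the start. The other 2, TTCTGGAA and GAAAGTTC, overlap in its longer run after the start. The only match of Hspb8 begins at base 3 of the transcribed part. The Hspa1b window matches that of its neighbour Hspa1a at 296 of 300 bases, and the coding parts of this pair are also known to be near-identical, so signal of Hspa1b and Hspa1a may be shared.

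Values are signal intensities as the authors deposited them, on a linear scale, where each array had been scaled to the same trimmed mean of 500. Each probe set is given separately. The letters before "_at" tell how specific it is: _a_at marks probes for several transcripts of a gene, _s_at probes shared by several transcripts, and _x_at probes of which some can cross-hybridize. Ratios were taken for probe sets whose mean signal was at least 67.95, the median of all, with values under 46.5 raised to that floor. This left 20326 probe sets in all, 22 of them members, and no member that entered had a value at the floor. The 2 that did not enter belong to Hsp90aa1. They read 37.0, 10.4, 61.6 and 14.4 (1433251_at) and 62.0, 29.2, 31.1 and 46.6 (1441827_x_at) on the arrays of Wip1+/+ unirradiated, Wip1+/+ irradiated, labelled Wip1-/- unirradiated and labelled Wip1-/- irradiated cells. That order of arrays is kept throughout. Signals were not compared between probe sets, since their probes differ.

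**Figure D1:**
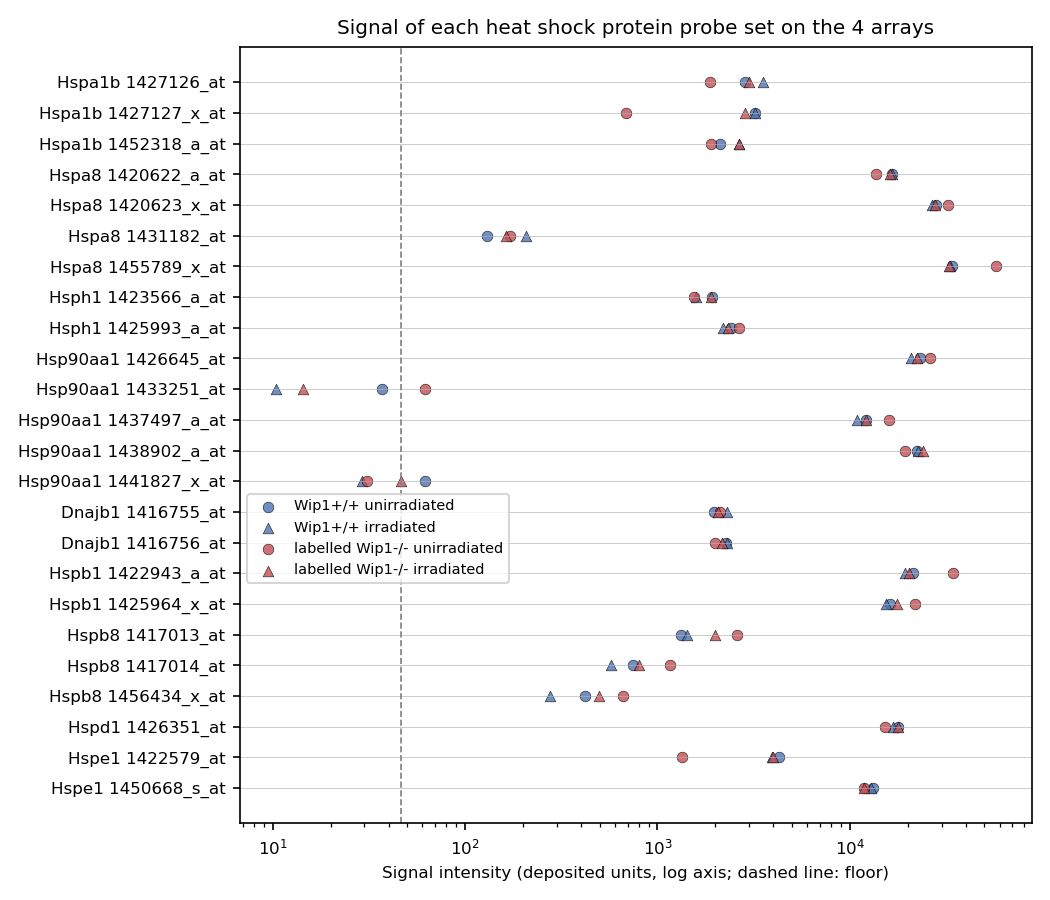
Signal intensity (log axis) of all 24 probe sets on the 4 arrays, with circles for unirradiated and triangles for irradiated cells, blue for Wip1+/+ and red for cells labelled Wip1-/-; the dashed line is the floor of 46.5. The red circle lies away from the other 3 symbols in Hspa1b 1427127_x_at and Hspe1 1422579_at, and both red symbols lie to the right of both blue ones in the 3 Hspb8 probe sets.

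With a single array in each group no p-value was possible, and nothing here measures the spread between cultures. As a scale for error, the SD of a log2 ratio between probe sets of the same gene, pooled over 5278 genes, was 0.37 for irradiation in Wip1+/+ cells, 0.62 for irradiation in cells labelled Wip1-/-, 0.65 for the genotype labels without irradiation and 0.41 for the labels after it. Over bright probe sets, with a mean signal of at least 500, the same SDs were 0.18, 0.54, 0.55 and 0.23, and these are the scale for the 20 bright members; the first set of values is the scale for the 2 dimmer ones. The unirradiated array labelled Wip1-/- differed from the rest. The SD of the log2 ratio over 18 spike-in hybridization controls was 0.44 to 0.47 in pairs with that array and 0.07 to 0.10 in pairs without it. Ppm1d itself read 375, 364, 504 and 482 by 1 probe set and 317, 463, 219 and 561 by the other, so by neither was it low on both of the arrays labelled Wip1-/-, and where these probes lie relative to the altered part of the gene was not tested. Fibroblast markers were present: the summed signal of the 9 markers that entered, out of 10 listed, was 188961 to 293233 over the arrays. Macrophage markers moved with the genotype label. Summed over the 9 of 10 that entered, their signal was 8802, 8826, 2180 and 2083, with Lyz2, the macrophage lysozyme, at 4533, 4986, 899 and 673. The tenth, Aif1, was under the floor on all 4 arrays.

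Before and after irradiation of Wip1+/+ cells the chaperone transcripts gave similar signal. None of the 22 member probe sets was 2-fold apart, against 3.51% of all 20326 probe sets and 0.0919% of the 9794 with a mean signal of at least 500. At 1.5-fold the count was 2 of 22, which is 9.09%, against 12.5% of all. These were a dim Hspa8 probe set and the dimmest Hspb8 probe set, and none of the 20 brighter members was past 1.5-fold, where 1.78% of bright probe sets were. The median log2 ratio of the members was -0.05, with 8 positive and 14 negative ratios, beside a median of -0.00 over all probe sets. Of the 20 bright members, 5 ratios passed the SD of 0.18, which is 25% beside 32.5% of all bright probe sets. They were 2 of Hspa1b and 1 of Dnajb1, which were higher, and 1 each of Hspb8 and Hsph1, which were lower.

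In cells labelled Wip1-/-, 2 of 22 member probe sets were at least 2-fold higher after irradiation, which is 9.09%. The background was 11.5% of all probe sets and 5.19% of the bright ones. They were Hspa1b 1427127_x_at at 4.19-fold and Hspe1 1422579_at at 2.96-fold, and in both genes the other probe sets read less than 2-fold. At 1.5-fold the count was 5 of 22, or 22.7%, against 32.3% of all and 23.9% of bright probe sets. The SD of 0.54 was passed by 6 of 20 bright members, 3 higher and 3 lower, or 30% beside 28.1%. The member median was -0.06, against -0.01 over all. When the base was instead both Wip1+/+ arrays averaged, so that the array with the differing controls was not used, none of the 22 was 2-fold apart on the irradiated array labelled Wip1-/-, where 4.21% of all and 1.09% of bright probe sets were. That contrast mixes the genotype label with irradiation, since 1 of its base arrays was irradiated, so it gives no estimate of the response to irradiation in cells labelled Wip1-/-.

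Between the genotype labels without irradiation, the same 2 probe sets were at least 2-fold lower on the array labelled Wip1-/-, against a background of 13.3% of all and 6.56% of bright probe sets. At 1.5-fold 8 of 22 were apart, 5 higher and 3 lower, which is 36.4% beside 34.4% of all and 26.4% of bright probe sets. The 5 higher ones were all 3 of Hspb8, 1 of Hspb1 and 1 of Hspa8. Under quantile normalization the last 2 were no longer past 1.5-fold, at 0.57 and 0.36 on the log2 scale, and under cyclic loess Hspa1b 1427126_at was not, at -0.58. The SD of 0.55 was passed by 7 of 20 bright members, or 35% beside 29.4%. After irradiation no member was 2-fold apart between the labels, where 5.47% of all and 1.24% of bright probe sets were. A single one, Hspb8 1456434_x_at, passed 1.5-fold, which 15.8% of all and 4.92% of bright probe sets did. The SD of 0.23 was passed by 4 of 20 bright members, or 20%, against 29.5% of bright probe sets. The member medians were 0.12 and 0.06 for the 2 label comparisons, against 0.02 and 0.01 over all probe sets. These comparisons share arrays with those of irradiation, so their values are set side by side and not counted as separate evidence.

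**Figure D2:**
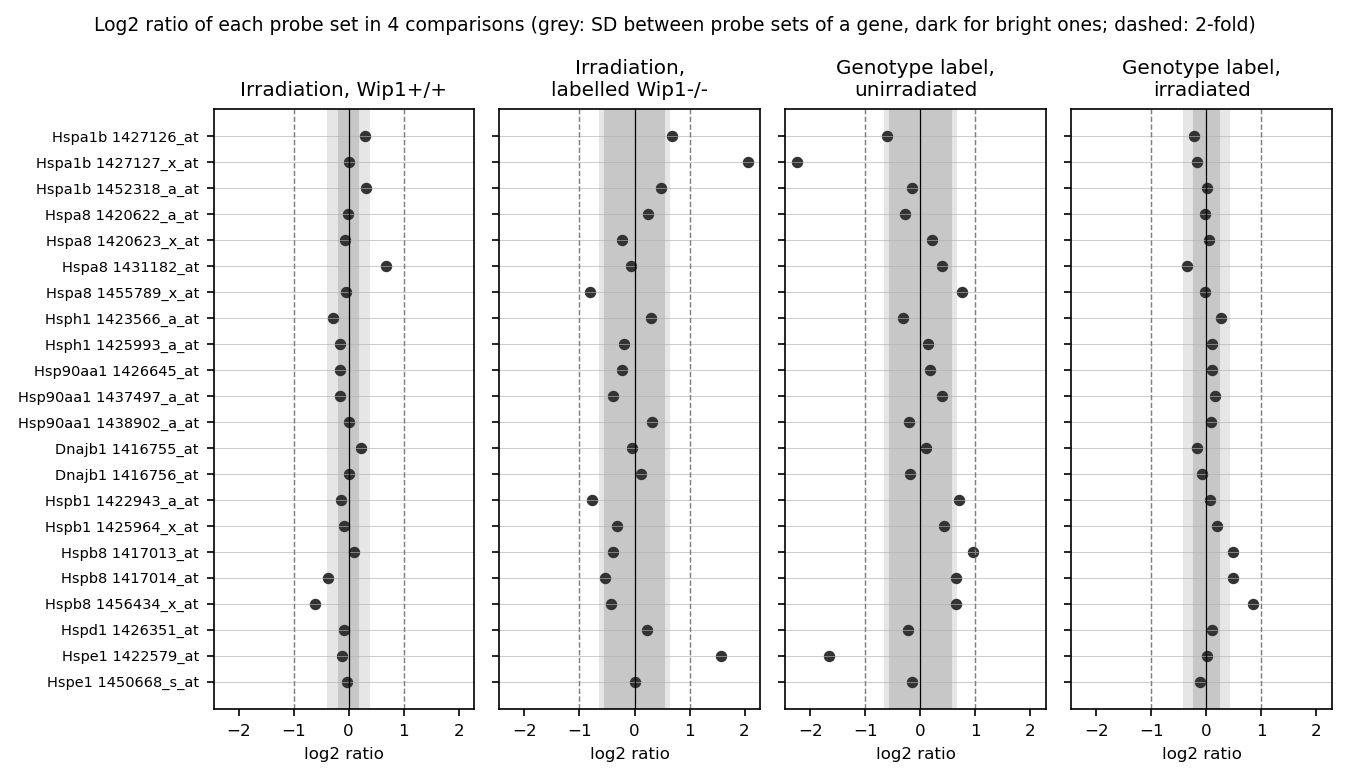
Log2 ratio of the 22 probe sets that entered, in each of the 4 comparisons (irradiated over unirradiated, and labelled Wip1-/- over Wip1+/+); the grey bands are the SD between probe sets of a gene, light over all genes and dark over bright probe sets, and the dashed lines mark 2-fold. Outside the dashed lines lie Hspa1b 1427127_x_at (2.07 and -2.24) and Hspe1 1422579_at (1.57 and -1.67), only in the panels that use the unirradiated array labelled Wip1-/-.

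Hspa1b, the stress-inducible cytosolic HSP70, is the member best known for strong induction by heat. Its gene lies at chr17:34956429-34959238. Its probe set 1427126_at read 2864, 3536, 1885 and 3006, and 1452318_a_at read 2112, 2644, 1906 and 2659. Both were thus higher on each irradiated array than on either unirradiated one, by 1.23- and 1.25-fold in Wip1+/+ cells and by 1.59- and 1.40-fold in cells labelled Wip1-/-. The third probe set, 1427127_x_at, read 3223, 3233, 683 and 2862, with the same signal on both Wip1+/+ arrays and a low reading on the unirradiated array labelled Wip1-/-. That array was the lowest of the 4 in all 3 probe sets, at 0.60, 0.22 and 0.78 times the geometric mean of the other 3. In Wip1+/+ cells the log2 ratios for irradiation were 0.30, 0.00 and 0.32, so that 2 of the 3 passed the SD of 0.18 between bright probe sets of a gene. Hspa1a, its near-identical neighbour, read 476, 537, 417 and 556 by its only probe set, with log2 ratios of 0.18 and 0.41 for irradiation. With a mean signal under 500, its scale is the SDs of 0.37 and 0.62, and both ratios lay inside them. The order of the 4 arrays for Hspa1a had both irradiated ones on top, as in those 2 Hspa1b probe sets, with which it may share signal. Over all probe sets, 16.1% had both irradiated arrays above both unirradiated ones, and 3 of the 22 members did, or 13.6%. The third was Hsp90aa1 1438902_a_at, beside those 2 of Hspa1b. The opposite order held for 5 members, 22.7%, beside 16.8% of all, and these were 2 probe sets of Hspa8 and 1 each of Hspb1, Hsph1 and Hsp90aa1.

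Hspa8, the constitutive HSP70 that folds new proteins and uncoats clathrin vesicles, gave similar bright signal on 3 arrays. Its gene lies at chr9:40801276-40805202. By 1420622_a_at it read 16520, 16473, 13636 and 16196. By 1420623_x_at it read 28004, 26708, 32375 and 27710. By 1455789_x_at it read 34078, 33169, 57518 and 32725. Without the unirradiated array labelled Wip1-/-, the highest and lowest of these signals differed by 1.02-, 1.05- and 1.04-fold. That array lay below the others by the first probe set and above them by the next 2, at 0.83, 1.18 and 1.73 times their geometric mean, so the probe sets of Hspa8 disagree in direction there. Processed copies of Hspa8 are known in the genome, and which transcripts its _x_at probes measure was not tested. The remaining, dim probe set, 1431182_at, read 130, 208, 170 and 163, which is 1.60-fold higher after irradiation of Wip1+/+ cells and 1.05-fold lower in cells labelled Wip1-/-. This dim set had the largest positive ratio of the 22 members in irradiated Wip1+/+ cells, while the bright ones had log2 ratios of -0.00, -0.07 and -0.04, each of which turned sign under quantile normalization.

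Hsph1, the HSP110 that releases nucleotide from HSP70, had a narrow range (gene at chr5:149616843-149636498). By 1425993_a_at it read 2416, 2181, 2654 and 2338, and by 1423566_a_at 1929, 1591, 1541 and 1908. The first was lower on each irradiated array, with log2 ratios of -0.15 and -0.18. The second had -0.28 in Wip1+/+ cells and 0.31 in cells labelled Wip1-/-, and the first of these passed the SD of 0.18.

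Dnajb1, the J-domain partner that hands clients to HSP70 and is itself an Hsf1 target, read much the same on every array (gene at chr8:83608175-83612653). By 1416755_at it read 1979, 2305, 2119 and 2053, and by 1416756_at 2279, 2295, 1989 and 2170. Its highest and lowest signals on the 4 arrays differed by 1.16- and 1.15-fold. The log2 ratios for irradiation were 0.22 and 0.01 in Wip1+/+ cells and -0.05 and 0.13 in cells labelled Wip1-/-, with no direction shared by both probe sets and both genotypes.

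Hsp90aa1, the inducible cytosolic HSP90 (gene at chr12:110691036-110696395), was lower after irradiation in both genotypes by 2 of its 3 bright probe sets. By 1426645_at it read 23086, 20815, 26058 and 22232. By 1437497_a_at it read 12100, 10839, 15896 and 12111, and by 1438902_a_at 22387, 22549, 19271 and 23906. The first 2 had log2 ratios for irradiation of -0.15 and -0.16 in Wip1+/+ cells and -0.23 and -0.39 in cells labelled Wip1-/-. The last had 0.01 and 0.31, so the probe sets of Hsp90aa1 turned opposite ways in cells labelled Wip1-/-. All of these ratios for irradiation lay inside the SDs for bright probe sets, 0.18 in Wip1+/+ cells and 0.54 in cells labelled Wip1-/-. After irradiation the 3 probe sets differed between the labels by 1.07-, 1.12- and 1.06-fold, all higher in cells labelled Wip1-/- and all inside the SD of 0.23.

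Hspb1, the small heat shock protein that binds unfolded clients and actin filaments (gene at chr5:135887919-135889563), was highest on the unirradiated array labelled Wip1-/-. By 1422943_a_at it read 21219, 19406, 34465 and 20213, and by 1425964_x_at 16255, 15399, 21826 and 17522. The array stood at 1.70 and 1.33 times the geometric mean of the other 3. Among the other 3 arrays the signals lay within 1.09- and 1.14-fold of each other, and the difference between the labels after irradiation was 1.04- and 1.14-fold. The smaller of these turned sign under other scalings, from -0.01 to 0.06 on the log2 scale. Bright probe sets as a class also leaned upward on that array. Of 569 with a mean signal of at least 10000, 53.3% were highest there and 36.4% lowest. Of the 10 members that bright, 6 were highest there and 4 lowest. The part of that array's behaviour in the Hspb1 signal was not tested.

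Hspb8, a small heat shock protein that works with Bag3 in clearing misfolded proteins by autophagy (gene at chr5:116408491-116422864), was the only gene of the 9 with every probe set higher on both arrays labelled Wip1-/- than on both Wip1+/+ arrays. The probe set 1417013_at read 1333, 1421, 2590 and 1981. The probe set 1417014_at read 744, 576, 1168 and 805, and 1456434_x_at read 421, 275, 662 and 494. The 2 groups of arrays by genotype label do not overlap in any of them. Without irradiation the signal was 1.94-, 1.57- and 1.57-fold higher with the Wip1-/- label, and after irradiation it was 1.39-, 1.40- and 1.80-fold higher. The log2 ratios after irradiation were 0.48, 0.48 and 0.85. The first 2 passed the SD of 0.23 for bright probe sets and the last, from a dimmer probe set, that of 0.41. Of the other bright members, 1 probe set each of Hsph1 (0.26) and Hspa1b (-0.23) passed it there. The direction was kept under all 3 other scalings of the arrays, with ranges of 0.48 to 0.49, 0.48 to 0.50 and 0.84 to 0.85. Without the array that stood apart, the irradiated array labelled Wip1-/- was 1.44-, 1.23- and 1.45-fold above the mean of both Wip1+/+ arrays. Such an order of the arrays is common here: 20.3% of all probe sets had both arrays labelled Wip1-/- above both Wip1+/+ arrays, and 5 of 22 members, 22.7%, did. The other 2 were 1 probe set each of Hspb1 and Hsp90aa1. In the opposite order stood 4 members, or 18.2%, beside 18.6% of all. These shares count single probe sets, and the share of all genes with every probe set in such an order was not counted. The macrophage signal given above was lower with the Wip1-/- label. Of 7 epithelial markers 4 entered. With the Wip1-/- label 3 were higher and 1 lower without irradiation, and all 4 were higher after it. The lower one was Epcam, at 142, 13.3, 83.1 and 195, with the second value under the floor. The 4 summed to 836, 718, 1162 and 1233, of which Krt18 made 552, 572, 818 and 842. Their median log2 ratios between the labels were 0.61 without irradiation and 0.56 after it. The defining markers Cdh1, Krt5 and Krt14 were under the filter. Fibroblast markers were higher with the label in 6 of 9 without irradiation and 9 of 9 after it. Endothelial markers were higher in 2 of 2 both times, while skeletal and smooth muscle markers were split. The part of any of these marker groups in the Hspb8 difference was not tested.

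Hspb8 signal was lower after irradiation in 5 of its 6 ratios. The log2 ratios were 0.09, -0.37 and -0.61 in Wip1+/+ cells and -0.39, -0.54 and -0.42 in cells labelled Wip1-/-. In Wip1+/+ cells the last 2 passed the SD of their brightness class, 0.18 and 0.37. In cells labelled Wip1-/- only -0.54, from 1417014_at, was at its SD of 0.54. The 3 ratios of cells labelled Wip1-/- use the unirradiated array that differed in its controls, on which Hspb8 read 1.67 to 1.72 times the geometric mean of the other 3 arrays.

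**Figure D3:**
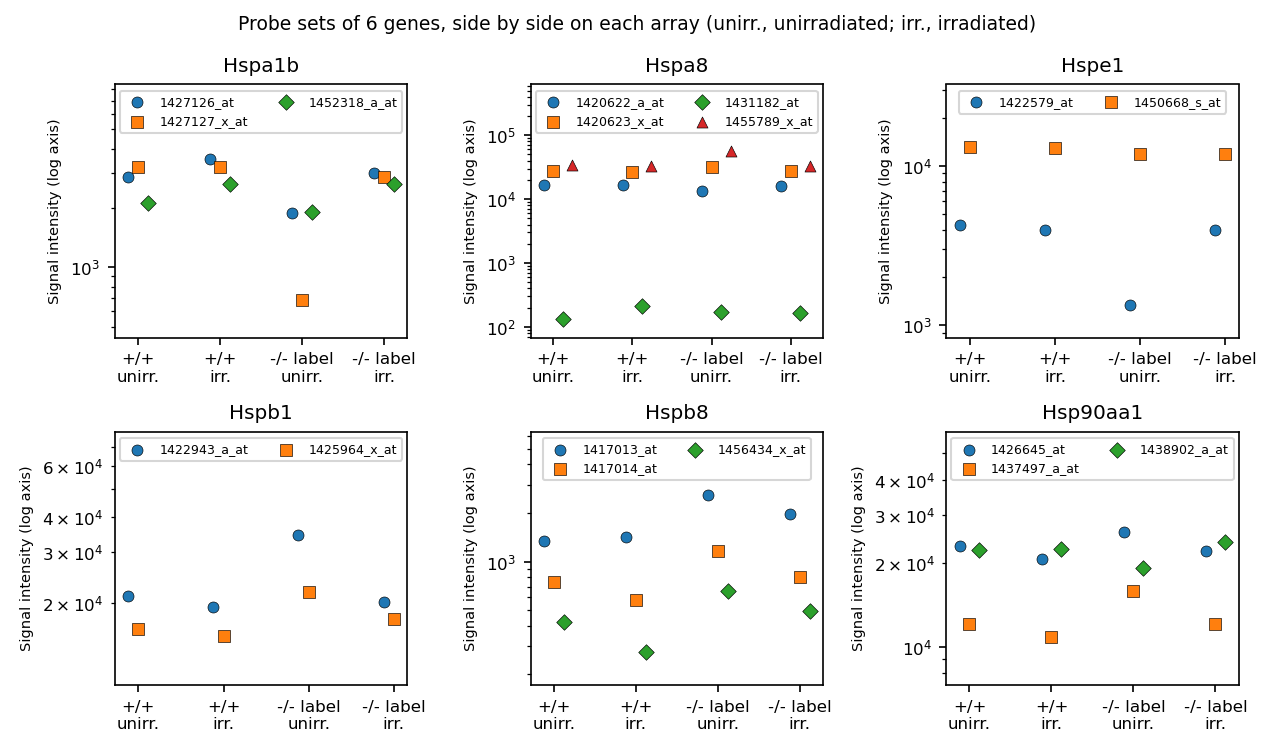
Signal intensity (log axis) of the probe sets of 6 genes on each array, each probe set with its own symbol and points of 1 array side by side. Probe sets of Hspb8 move in parallel between the labels, while 1427127_x_at of Hspa1b (683) and 1422579_at of Hspe1 (1340) lie lower on the unirradiated array labelled Wip1-/- than on any other, by more than the other sets of those genes.

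Hspd1 and Hspe1, the barrel and lid of the mitochondrial chaperonin, are transcribed from the divergent promoter printed above (genes at chr1:55077833-55088243 and chr1:55088148-55091317). Hspd1 read 17727, 16721, 15229 and 17856 by its only probe set. Hspe1 read 13186, 12950, 11828 and 11880 by 1450668_s_at, and 4261, 3946, 1340 and 3971 by 1422579_at. For the first 2 of these 3 probe sets the highest and lowest signals on the 4 arrays differed by 1.17- and 1.11-fold. The last was 3.18-fold lower on the unirradiated array labelled Wip1-/- than on its Wip1+/+ counterpart, and on the other 3 arrays it stayed within 1.08-fold. The partner transcript and the second Hspe1 probe set showed much smaller differences there, with log2 ratios of -0.22 and -0.16 against -1.67. In Wip1+/+ cells the irradiation ratios of these 3 sets were -0.08, -0.03 and -0.11.

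Seen across the members, the unirradiated array labelled Wip1-/- was the highest of the 4 arrays in 10 probe sets, the lowest in 10 and in between in 2. For the members that is 45.5% highest and 45.5% lowest. For all 20326 probe sets the shares were 37.7% highest and 35.2% lowest, and for bright ones 40.4% and 38.8%. On the other 3 arrays the highest and lowest signal of a member differed by a median of 1.11-fold, beside 1.27-fold over all probe sets and 1.17-fold over bright ones. Of 22 members 20 stayed under 1.5-fold there. That share, 90.9%, compares with 72.6% of all probe sets and 92.1% of bright ones, so it is near that of other bright probe sets. The exceptions were Hspa8 1431182_at and Hspb8 1456434_x_at, both with a mean signal under 500.

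**Figure D4:**
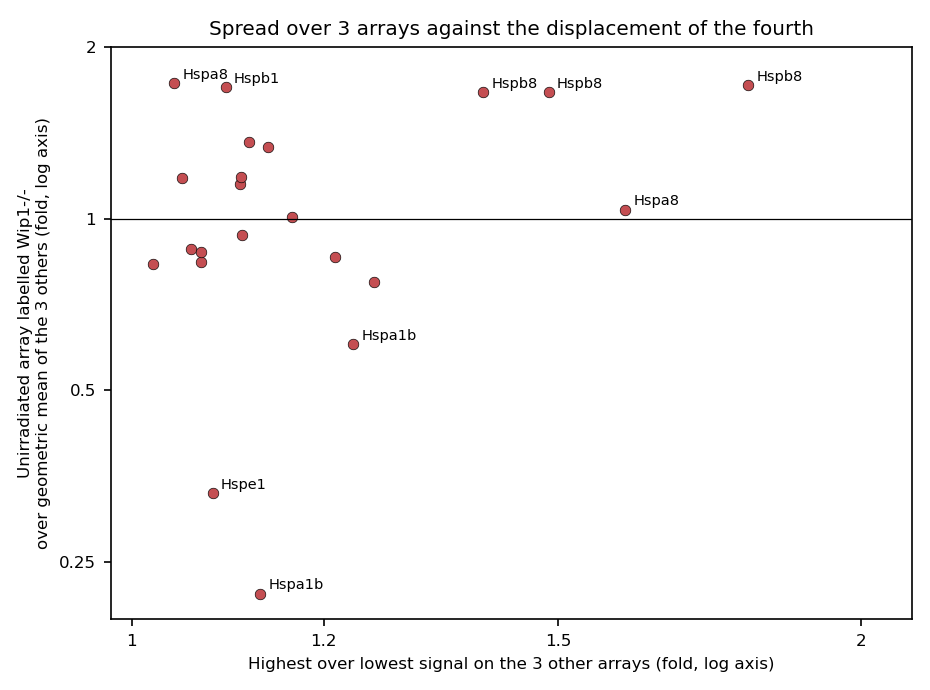
Each point is 1 of the 22 probe sets; the x axis gives the highest over the lowest signal on the 3 arrays other than the unirradiated one labelled Wip1-/-, and the y axis that array's signal over the geometric mean of the other 3 (both fold, log axes). Hspa1b and Hspe1 lie as low as 0.22 and 0.33 on the y axis with under 1.2-fold spread on the x axis, and the 3 Hspb8 probe sets lie at 1.67 to 1.72 on the y axis and 1.40 to 1.80 on the x axis.

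Beyond the members, 89 genes of the chaperone network in 8 lists were read by their brightest probe set, and 77 entered. In irradiated Wip1+/+ cells 43 ratios were positive and 34 negative; their median on the log2 scale was 0.02, beside 0.01 over 11546 genes. None was 2-fold higher and 1 was 2-fold lower, where 3.07% of all genes were 2-fold apart. This one was Hspb7, a small heat shock protein of muscle, at 137, 60.8, 126 and 70.9, which was lower on both irradiated arrays. In cells labelled Wip1-/- 4 were 2-fold higher after irradiation and none lower, or 5.19% against 10.3%. Between the labels 5 were 2-fold lower without irradiation, or 6.49% against 12%, and none was 2-fold apart after it, against 5.29%. These shares are below those of all genes, from which the lists differ in brightness. Among the 78 other probe sets of 40 of these genes, 3.85%, 11.5%, 15.4% and 6.41% were 2-fold apart in the 4 comparisons, beside 3.51%, 11.5%, 13.3% and 5.47% of all probe sets.

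The inducible targets of Hsf1 outside the members were split in direction. Of 14 listed, 12 entered, and in irradiated Wip1+/+ cells 7 were positive and 5 negative, with a median of 0.04. In cells labelled Wip1-/- 5 were positive and 7 negative, with a median of -0.03. None was 2-fold apart in any comparison. The 2 with the largest ratios were Chordc1, an HSP90 partner, at 3175, 3224, 1818 and 2961, and Serpinh1, the collagen chaperone, at 21287, 20396, 36591 and 21306. In both, the unirradiated array labelled Wip1-/- is the one that departs, and the other Serpinh1 probe set had a log2 ratio of 0.19 there against 0.78. Bag3, the partner of Hspb8, read 1788, 1974, 3003 and 1928. It was high on that array alone, and its log2 ratio between the labels after irradiation was -0.03. Of the 4 heat shock factors listed, Hsf1 had no probe set under its symbol alone in the annotation used, so its transcript was not read. Hsf2 and Hsf5 were under the filter. Only Hsf4 entered, at 89.6, 102, 10.6 and 74.4, with the third value under the floor.

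In the remaining lists, most genes past 2-fold by their brightest probe set rested on the same array. Clpx, the unfoldase of the mitochondrial ClpXP protease, read 803, 730, 246 and 938. Vbp1, a prefoldin subunit, read 5263, 4898, 2280 and 4981, and Dnaja3, a mitochondrial J-domain protein, read 1161, 946, 510 and 890. Each of these 3 was low on the unirradiated array labelled Wip1-/- only, and the other probe set of Dnaja3 had a log2 ratio of -0.29 between the labels there, against -1.19. Hspa14, a ribosome-bound HSP70, read 917, 887, 442 and 829, and its other probe set had 0.32 against -1.05. Dnajb5, a cytosolic J-domain protein, read 502, 402, 177 and 428, with -0.06 and -0.49 by its other probe sets against -1.51. Hspb7, given above, and Hspb2, another small heat shock protein of muscle, did not rest on that array. Hspb2 read 113, 111, 96.1 and 219, with a single high reading on the irradiated array labelled Wip1-/-. Among 14 chaperones of the endoplasmic reticulum none was 2-fold apart by its brightest probe set. Of their 14 other probe sets, 4 were 2-fold apart between the labels without irradiation, or 28.6%. The share was 15.4% of the other probe sets over all lists and 13.3% of all probe sets. Hyou1, an HSP110 of that compartment, was higher on both arrays labelled Wip1-/- by 2 dim probe sets, at 80.5, 129, 347 and 419 and at 59.5, 39.0, 129 and 151, while its brightest read 1538, 1345, 1631 and 1506. Hspa5, the HSP70 there, read 14299, 13156, 6737 and 14699 by 1 of its other probe sets, and Pdia3, a disulfide isomerase, 313, 251, 56.2 and 219, both low on the unirradiated array labelled Wip1-/- only. By the brightest probe sets the largest ratios there were those of Sdf2l1 at 177, 250, 346 and 248, and of Hsp90b1, the HSP90 of that compartment, at 15901, 16428, 9796 and 18231. The 14 chaperonin CCT and prefoldin genes had medians of -0.10 and -0.06 for irradiation, the 9 mitochondrial chaperones and proteases 0.00 and -0.21, the 19 cochaperones that entered 0.03 and 0.19, and the 14 chaperones of the endoplasmic reticulum 0.04 and 0.08. The 5 other HSP70 and HSP110 genes that entered had -0.05 and -0.08, and the 3 other small heat shock proteins -0.02 and 0.26.

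Of the 9 genes by their brightest probe set, Hspb8 had the widest range over the arrays, 0.96 on the log2 scale. The 5 genes of 11546 whose centred log2 signals lay closest to it over the 4 arrays were Asap2, Med13l, Jup, Cryzl1 and Ube2t, at Euclidean distances of 0.04 to 0.06. Jup, the junction protein plakoglobin, for example read 932, 950, 1816 and 1384. With 4 arrays many genes can share such a shape, so this likeness is a description only.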

How the data were processed

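Gene expression was measured in 4 mouse embryonic fibroblast samples on Affymetrix Mouse Genome 430 2.0 arrays. Per probe set, the authors deposited a linear signal intensity. The submitters' processing notes name GCOS and no version; the sources used here do not give the background step. Each array had a mean of 500 after trimming 2% at each end, and values were used as deposited. How many arrays there are limits the precision.

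Probe sets were named from the platform's annotation; of 45037 that were not controls, 34945 had 1 symbol, 932 had several and 9160 were not listed, and only the first were used. Values under 46.5, the 40th percentile of all, were raised to it before log2. No test was run, since groups held single arrays; probe sets at least 2-fold or 1.5-fold apart were counted and set beside the percentage of all that entered. The code was tested on simulated data. Named genes are all member probe sets; in the other lists those 2-fold apart above the floor, or the 2 largest ratios where a list had none; and the 5 genes nearest to the widest member. Bag3 was named after its values were seen. The members and lists were chosen with earlier results of these data known. Besides the lists printed above, markers of epithelial, endothelial, skeletal muscle and smooth muscle cells were read: 4 of 7, 2 of 5, 4 of 5 and 5 of 5 entered, with summed signals of 718 to 1233, 194 to 347, 776 to 1413 and 120329 to 187340. Alternatives were cyclic loess, quantile normalization, scaling on the median of bright probe sets, other floors and filters, 1 value per gene, leaving out _x_at and _s_at probe sets, and a base without the array that stood apart. Bright-probe SDs, 1.5-fold counts by scaling and other probe sets of list genes were added after seeing the data; Hyou1, Hspa5 and Pdia3 probe sets were named from them. Python 3.11.15, R 4.3.3 and limma 3.58.1 were used.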

Additional observations from a re-analysis of the deposited data

How the results depend on the processing

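Medians of the member log2 ratios moved by less than the SD between probe sets under every alternative run, from -0.08 to -0.01 for irradiation in Wip1+/+, -0.18 to 0.04 for irradiation in cells labelled Wip1-/-, -0.05 to 0.14 for the labels without irradiation and 0.01 to 0.09 after it; the sign of those for irradiation in cells labelled Wip1-/- and for the labels without irradiation turned within these ranges, and medians this near 0 have no settled direction. The number of members above 0 in irradiated Wip1+/+ cells, 8 of 22, was 5 to 10 over the scalings. Counts depended on the threshold: at 1.5-fold in place of 2-fold they were 2, 5, 8 and 1 in place of 0, 2, 2 and 0, in the order of comparisons above. With 1 value per gene, from the brightest probe set or the median over its probe sets, both counts of 2 became 0, and without _x_at and _s_at probe sets both became 1. With both Wip1+/+ arrays as the base, an alternative added after seeing the data, the count for irradiated cells labelled Wip1-/- was 0; this contrast mixes label and irradiation and does not test the response to irradiation. The 1.5-fold counts became 6 under quantile normalization and 7 under cyclic loess for the labels without irradiation, and 4 and 6 for irradiation in cells labelled Wip1-/-. Of 840 values of single probe sets under alternatives, 17 turned sign, and the main value farthest from 0 among these was -0.07. No paired analysis was possible because each group held 1 array.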
